A study of Mus musculus with 12 samples.

Results

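The genes described here code for potassium channels (symbols beginning with Kcn), voltage-gated sodium channels (Scn followed by a digit) and the pacemaker channels (Hcn), with their accessory subunits. They were taken by symbol from the gene tables of both heart cell fractions. Of 117 symbols that matched, 3 antisense or overlapping transcripts (Kcnab3os, Kcnd3os and Kcnq1ot1) were left out, which gave 114 members among the 46983 symbols of each table. The antisense RNAs Kcnmb4os1 and Kcnmb4os2 stayed among the members because of how their symbols end, and neither was tested in any fraction. Bulk RNA came from mouse hearts split into cardiomyocytes (CM) and the remaining, interstitial cells (NonCM), with 3 libraries for each genotype in either fraction. Control mice carried the genotype MCM/+, and the other mice carried MCM/+ with Wls fl/fl, that is, floxed alleles of Wls, whose protein carries Wnt ligands to the cell surface. MCM is the usual short name of a Cre recombinase that becomes active after tamoxifen, and the promoter that drives it is not named in the labels. Both genotypes were of the strain written as BL6/C57, received 3 doses of tamoxifen from postnatal day 1 to 3, had a myocardial infarction on postnatal day 2 and were sampled 2 weeks after that surgery, although the source labels call the cells adult. No group lacks the Cre allele, tamoxifen or the infarct, so none of the comparisons below bears on those.

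Each heartbeat follows an action potential in which sodium channels open first and transient outward and delayed rectifier potassium currents then repolarize the cell. Inward rectifier and leak channels hold the resting potential. Pacemaker channels are opened by hyperpolarization and are best known from the sinus node. Most of these channels are a pore-forming subunit with accessory subunits that set how many channels reach the membrane and how they open, and the cells between the cardiomyocytes, such as fibroblasts, vessel cells and nerve cells, use channel genes of their own.

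Libraries held between 1160146 and 10281214 reads assigned to genes, and in the shallowest one, NonCM control replicate 1, a single read equals a normalized read count of 5.54. In each of the 4 groups, the spread of replicate 3 around a weighted mean of replicates 1 and 2 was 1 to 1.08 times what counting alone gives, whereas replicates 1 and 2, set against the others in the same way, gave 1.11 to 1.74. The reason was not tested. If replicate 3 held RNA of the other libraries, each group would hold 2 independent libraries rather than the printed n = 3, and the SDs, SEs and p-values would be too small. The genotype calls and the counts and medians of the main gene lists are therefore also given without it. Without replicate 3 of both genotypes, limma called 0 of 13278 genes in NonCM (1242 at an unadjusted p under 0.05) and 2 of 11937 in CM. Wls itself was at 218 ± 22.1 (SD, n = 3) normalized reads in the CM controls and 80.9 ± 20.5 (n = 3) in Wls fl/fl CM libraries, a log2 difference of -1.45 (limma adjusted p = 0.00389), and at -0.28 in NonCM (adjusted p = 0.0831). A list of 14 cardiomyocyte markers took 11.4% ± 0.108 (SD, n = 3) of reads in the CM controls, 11.6% ± 0.655 in Wls fl/fl CM, 7.75% ± 0.365 in the NonCM controls and 6.57% ± 0.114 in Wls fl/fl NonCM libraries, and none of the 14 was at 0 in NonCM. In NonCM all 14 of these markers were lower in Wls fl/fl libraries, and 10 fell, with a median log2 difference of -0.28 (range -0.40 to -0.08). The 10 fibroblast markers took 0.935% ± 0.0108 of reads in the NonCM controls and 1.42% ± 0.0577 in Wls fl/fl NonCM libraries, and 8 of them rose (median 0.56). Macrophage markers took 0.151% and 0.194%, and endothelial markers 0.205% and 0.190%, of NonCM control and Wls fl/fl reads. In bulk RNA, fewer cells of a type and less RNA per cell cannot be told apart.

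A member was tested in a fraction when its mean normalized read count there was 10 or more. This left 39 of 114 members in CM and 53 of 114 in NonCM, where the 53 were the same 39 and 14 more. In CM a further 64 members had some reads but stayed under the limit and 11 had no read, and in NonCM these numbers were 58 and 3. Among the members under the limit in both fractions were the sodium channel beta subunit Scn4b, with 41 reads in the 6 CM libraries and 38 in the 6 NonCM libraries, the large-conductance calcium-activated channel Kcnma1, with 9 and 23 reads, and the accessory subunit Kcne2, with 0 and 1. Counts below refer to the tested members only.

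Levels between genes were compared as CPM, a gene's reads per 1000000 reads of its library, per kilobase of annotated exon. In control CM libraries the highest level per length belonged to the leak channel Kcnk3, at 76.5 ± 2.39 (SD, n = 3), followed by Kcnip2, the accessory subunit of the transient outward channels, at 50.7 ± 0.0719. The silent modifier subunit Kcng2 came after them at 40.4 ± 1.4, and the ranges of these 3 genes over the libraries did not meet. The G-protein-gated inward rectifier Kcnj5 stood at 23.8 ± 3.54, the rapid delayed rectifier Kcnh2 at 21.1 ± 1.66, the inward rectifier Kcnj2 at 20.1 ± 0.98, the slow delayed rectifier subunit Kcne1 at 19.1 ± 1.13 and the pacemaker channel Hcn2 at 18.5 ± 0.286. Neighbours in this order from Kcnj5 to Hcn2 differed by less than the larger of their SDs. Of the other pacemaker channels, Hcn4 reached 1.12 ± 0.246 CPM per kilobase, and Hcn3 stayed under the test limit with 7 reads in the 6 CM libraries.

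In control NonCM libraries the same 3 genes led, with Kcnk3 at 47.1 ± 0.336, Kcnip2 at 32.8 ± 2.99 and Kcng2 at 24.7 ± 3.01 CPM per kilobase (SD, n = 3). The 14 cardiomyocyte markers took 7.75% of reads in these libraries, beside 11.4% in the CM controls. The levels are thus not those of interstitial cells alone, and the part of cardiomyocyte RNA in them was not tested. Scn7a, a sodium channel relative that senses extracellular sodium, stood at 20.2 ± 2.09, ahead of Kcnj5 at 16.9 ± 3.06 and the vascular ATP-sensitive channel Kcnj8 at 14.4 ± 0.751. The libraries of Kcng2 and Scn7a overlapped in their levels, as did those of Scn7a and Kcnj5, so their order is not resolved. All members together summed to 1904 CPM in CM control and 1573 CPM in NonCM control libraries.

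**Figure D1:**
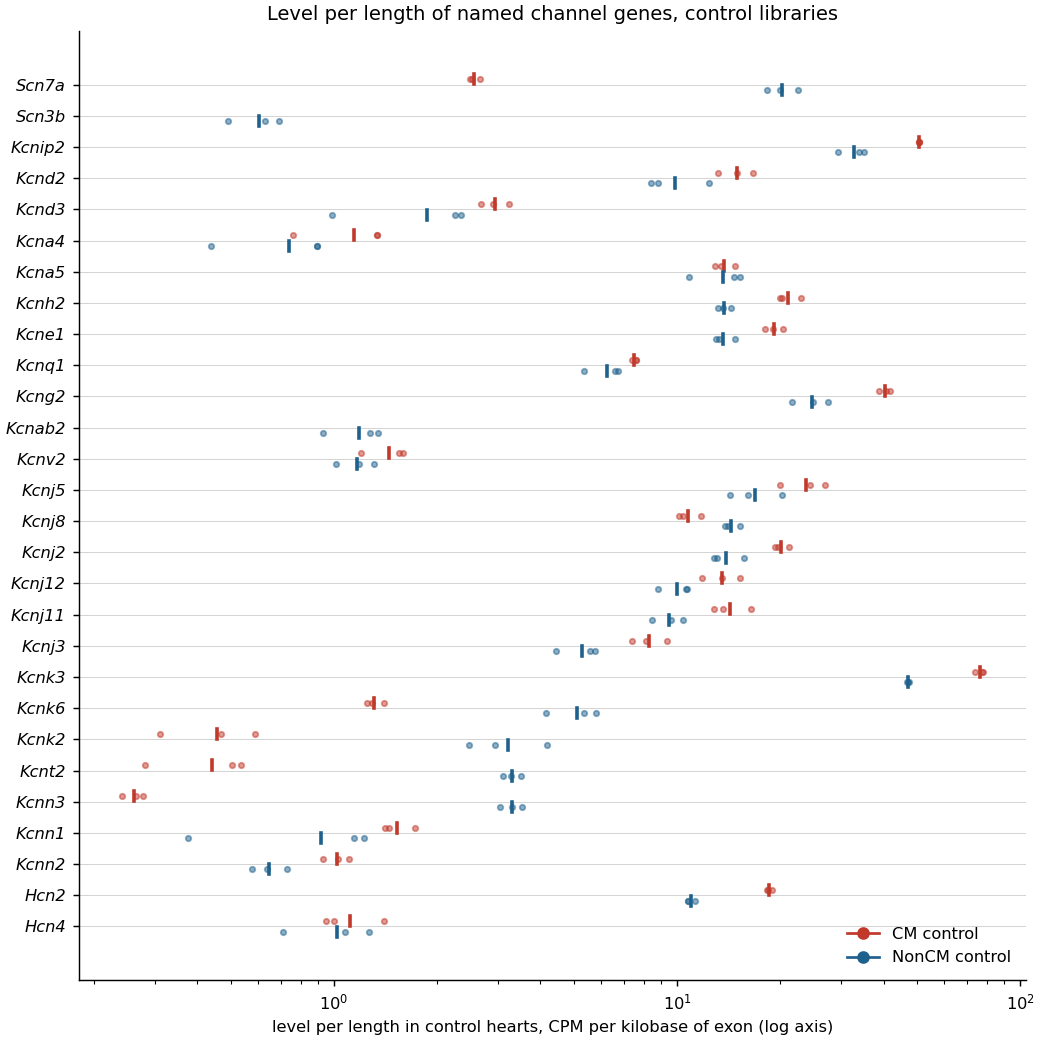
Level per length (CPM per kilobase of exon, log axis) of the named channel genes in the 3 CM control and 3 NonCM control libraries, with points for libraries and bars for means. Kcnk3 was highest in both fractions (76.5 and 47.1), while Kcnn3, Kcnt2, Kcnk2 and Scn7a lay to the right in NonCM.

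In the NonCM fraction, 3 of the 53 tested members passed the test between genotypes. Kcnn3, a small-conductance channel that calcium opens, rose, while Kcnh2, the pore subunit of the rapid delayed rectifier, and Kcnip2 fell. That is 5.66% of the tested members, beside 4.51% of all 13271 genes tested in NonCM (2.47% higher and 2.03% lower). In this test the share of members called was therefore near the background. The test was limma on log2(value + 1) with Benjamini-Hochberg adjustment over all genes tested and a threshold of 0.05.

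Kcnn3 (chr3:89520164-89675132, plus strand, GRCm38) stood at 205.1, 236.4 and 247.7 normalized reads in the NonCM controls against 406.3, 373.9 and 354.3 in Wls fl/fl NonCM libraries. All Wls fl/fl libraries lay above all controls, by a log2 difference of 0.72 (SE 0.09, limma adjusted p = 0.0044), which is 1.65-fold. The call held when any single library was left out (log2 differences of 0.64 to 0.78, adjusted p from 5.83e-05 to 0.0393) and was lost without replicate 3 of both genotypes (log2 difference 0.82, adjusted p = 0.186). Its difference stands beside medians of 0.56 over the fibroblast markers, 0.59 over 4 tested Schwann cell and neuron markers and 0.32 over macrophage markers. In the same libraries the medians were 0.04 over pericyte and smooth muscle, -0.12 over endothelial and -0.28 over cardiomyocyte markers. The part of cell composition in the Kcnn3 difference was not tested.

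Kcnh2 (chr5:24319589-24351604, minus strand) stood at 410.2, 452.3 and 467.1 normalized reads in the NonCM controls against 321.1, 357.9 and 341.6 in the Wls fl/fl group. The groups did not overlap, and the log2 difference was -0.38 (SE 0.08, limma adjusted p = 0.0268). Kcnip2 (chr19:45791839-45816061, minus strand) stood at 781.6, 697.8 and 792.3 in the controls against 630.2, 584.1 and 573.2 in the Wls fl/fl group. Again the groups did not overlap, with a log2 difference of -0.34 (SE 0.07, limma adjusted p = 0.0271). Both lie within the range of the cardiomyocyte markers, whose lowest value in these libraries was -0.40, and the part of cell composition in them was not tested. Neither call was firm: that of Kcnh2 was lost without any 1 of the 3 Wls fl/fl libraries or without control replicate 3 (adjusted p of 0.0912 to 0.152), and that of Kcnip2 without Wls fl/fl replicate 2 or 3 or control replicate 3 (adjusted p of 0.118 to 0.171). Without replicate 3 of both genotypes the adjusted p was 0.49 for Kcnh2 and 0.497 for Kcnip2. Kcnh2 overlaps Gm15589 on the opposite strand, and the counting was not stated to use strand, so reads of the pair cannot be told apart.

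**Figure D2:**
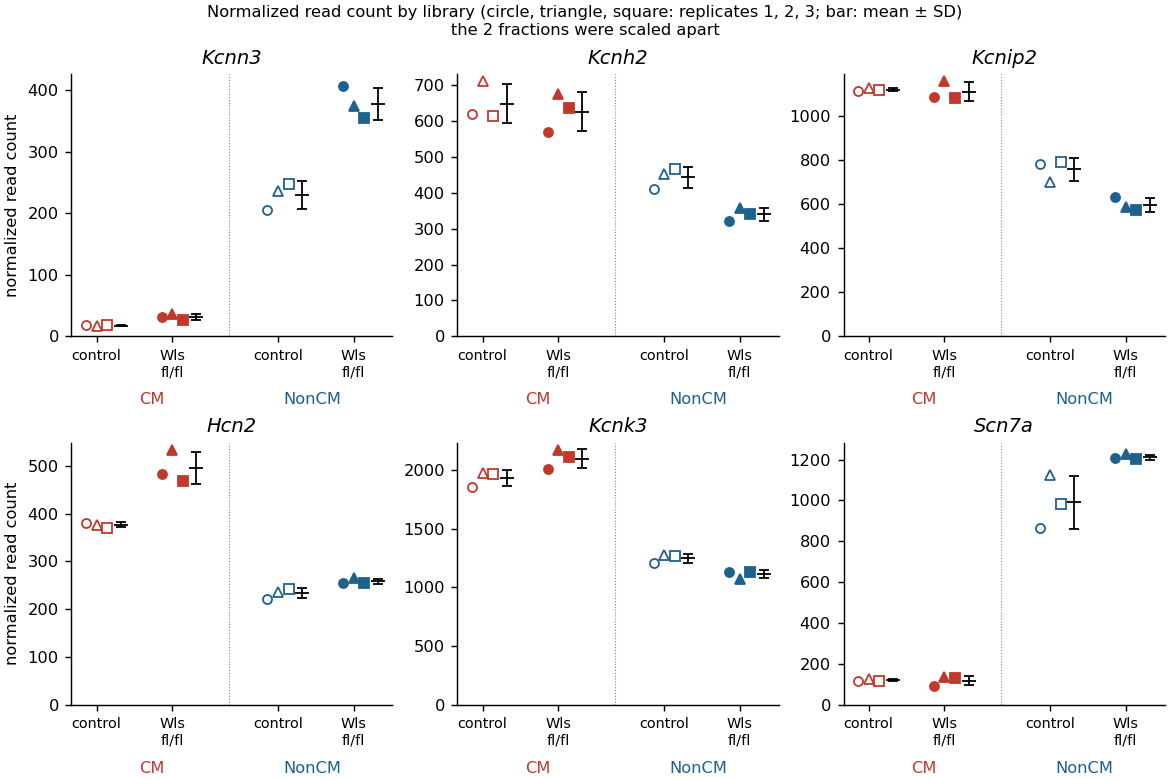
Normalized read count of 6 channel genes in each of the 12 libraries (circle, triangle and square for replicates 1, 2 and 3, bar for mean ± SD of 3 libraries), with linear axes from 0 and the fractions scaled apart. In NonCM the 3 Wls fl/fl libraries lay above all controls for Kcnn3 and below them for Kcnh2 and Kcnip2, and in CM they lay above for Hcn2.

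The stretches of 250 bases just upstream of the RefSeq start (GRCm38.p6) are shown for these 3 genes and for Hcn2, the member of smallest p in CM, because these are the members on which the genotype comparisons turn. They are written 5′ to 3′ on the strand of the gene, and capitals mark the GC box GGGCGG and the CCAAT box CCAAT, each searched on both strands. The Kcnn3 stretch is chr3:89519914-89520163 (plus strand), that of Kcnh2 is chr5:24329592-24329841 (minus strand, an internal start within the annotated gene), that of Kcnip2 is chr19:45816064-45816313 (minus strand) and that of Hcn2 is chr10:79716384-79716633 (plus strand).
Kcnn3: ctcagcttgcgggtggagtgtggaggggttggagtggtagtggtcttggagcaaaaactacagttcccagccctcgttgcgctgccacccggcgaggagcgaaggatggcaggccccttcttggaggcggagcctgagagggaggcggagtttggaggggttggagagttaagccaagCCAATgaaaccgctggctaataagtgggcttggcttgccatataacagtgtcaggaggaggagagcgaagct
Kcnh2: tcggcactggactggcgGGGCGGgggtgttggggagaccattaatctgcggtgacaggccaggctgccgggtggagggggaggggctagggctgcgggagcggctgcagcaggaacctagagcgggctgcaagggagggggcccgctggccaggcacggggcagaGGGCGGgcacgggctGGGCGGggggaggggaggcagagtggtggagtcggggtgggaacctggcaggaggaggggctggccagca
Kcnip2: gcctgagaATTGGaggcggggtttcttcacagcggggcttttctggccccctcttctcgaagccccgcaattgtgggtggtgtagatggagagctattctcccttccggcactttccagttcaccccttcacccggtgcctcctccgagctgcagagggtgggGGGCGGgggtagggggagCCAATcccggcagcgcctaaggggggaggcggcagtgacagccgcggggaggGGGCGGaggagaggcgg
Hcn2: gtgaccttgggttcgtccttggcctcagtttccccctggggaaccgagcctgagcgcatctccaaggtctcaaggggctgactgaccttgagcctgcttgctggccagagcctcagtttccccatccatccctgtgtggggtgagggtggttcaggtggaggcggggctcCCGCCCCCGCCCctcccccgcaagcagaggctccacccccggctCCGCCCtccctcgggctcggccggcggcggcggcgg
The Kcnn3 stretch held a CCAAT box at position -72 from the start, counted to the first base of the match, and no GC box. The Kcnh2 stretch held GC boxes at -233, -85 and -70, and that of Hcn2 held them at -80, -74 and -36. The Kcnip2 stretch held GC boxes at -87 and -17 and CCAAT boxes at -242 and -69. GC boxes were found in 32.7% and CCAAT boxes in 33.9% of all 32851 RefSeq stretches of this length. Motifs of cardiac and Wnt-pathway factors were also searched on both strands, namely the MEF2 motif (CTA and TAG with any 4 bases between them, in 3.2% of all stretches), the letters AGATAA of GATA factors (9.99%), the letters CATTCC of TEAD factors (12.6%) and the letters CTTTGAT of TCF/LEF factors (3.21%), and none of these was in the 4 stretches shown. Over the 46 stretches of the 32 tested members that matched a RefSeq entry, 0 held the MEF2 motif, 2 that of GATA factors, 4 that of TEAD factors and 2 that of TCF/LEF factors, the last in Kcne4 and Kcnk2.

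The remaining NonCM members leaned lower without passing the test. Of the 53 tested, 32 were lower and 21 higher with Wls fl/fl, and they had a median log2 difference of -0.12 beside 0.02 over all genes tested. With no filter on low values the members' median was 0.04 and that of all genes 0.08. It was -0.07 without Wls fl/fl replicate 3 and also -0.07 without replicate 3 of both genotypes, where 28 of 51 tested members were lower. At an unadjusted p under 0.05 stood 19 members (35.8%, beside 19.3% of all genes), 14 of them lower and 5 higher. The groups did not overlap with Wls fl/fl lower in 13 members (24.5%, beside 12.6% of all genes) and with Wls fl/fl higher in 7 (13.2%, beside 13.9%). In a list of 25 channel genes of the heart's working muscle and conduction system, 23 were tested and 19 were lower (82.6%), with a median of -0.17. Thus 19 of the 32 lower members were of this list. It held 2 calls (Kcnh2 and Kcnip2, 8.7%, beside 2.03% of all genes called lower). In 11 of its members the groups did not overlap with Wls fl/fl lower (47.8%, beside 12.6% of all genes). Without replicate 3 of both genotypes, 17 of the 23 were lower, with a median of -0.17 and 0 calls. Like the markers of cardiomyocytes, this list lay lower in the same libraries, and the part of cell composition was not tested.

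edgeR's quasi-likelihood test on the recovered reads called 12 of the 53 tested members in NonCM (beside 10.9% of all genes), 3 higher and 9 lower. Besides the 3 above these were Kcnab2 and Scn7a (higher) and Kcnd2, Kcng2, Kcnj5, Kcnj11, Kcnj12, Kcnk3 and Kcnv2 (lower). DESeq2 on the same reads called 4 of the 30 members to which it gave an adjusted p (beside 6.02% of all genes), adding Kcnj12. In both count tests the share of members called was above that of all genes, and the reason was not tested. In the authors' deposited table the same 4 passed an adjusted p of 0.05 among the 29 members with one. That table also comes from DESeq2 on these reads, so it is no separate test. Its share of all genes called is not given here. For Kcnn3 the authors' deposited table gives a log2 fold change of 0.68 (adjusted p = 1.02e-05), for Kcnh2 -0.41 (0.00718), for Kcnip2 -0.34 (0.0103) and for Kcnj12 -0.49 (0.0468).

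Inward rectifiers, which stabilize the resting potential, were the channel family with most members lower in NonCM. Of 8 tested, 7 were lower in Wls fl/fl libraries (beside 46.8% of all genes), and the family's median was -0.34. In 5 of the lower ones the groups did not overlap (beside 12.6% of all genes). By limma, 4 stood at an unadjusted p under 0.05 (beside 19.3% of all genes) and 0 passed the test. The family is described because it had the most lower members, so its counts support nothing further. Without replicate 3 of both genotypes, 8 of 8 were lower, with a median of -0.24. Kcnj12, a pore subunit of the classical inward rectifier current, was at 155.2, 200.6 and 196.3 normalized reads in the controls against 147.5, 123.1 and 137.5 in the Wls fl/fl group (log2 difference -0.43, limma adjusted p = 0.0895). Kcnj5, a subunit of the acetylcholine-gated channel, was at 609.8, 456.8 and 506.9 against 434.3, 400.5 and 375.2 (-0.37, adjusted p = 0.0865). In both genes every Wls fl/fl library lay below every control. Its partner Kcnj3 differed by -0.35 (adjusted p = 0.119) and Kcnj11, the cardiac ATP-sensitive channel, by -0.33 (adjusted p = 0.122), both without overlap. Kcnj8 differed by -0.14 (adjusted p = 0.333) and Kcnj2, the other main subunit of the classical current, by -0.08 (adjusted p = 0.64), and the groups of Kcnj2 overlapped.

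Among the transient outward genes, 5 of 6 tested in NonCM were lower (beside 46.8% of all genes). Kcnip2 alone was called (beside 2.03% of all genes called lower). Its pore partner Kcnd2 was at 410.2, 295.1 and 303.4 normalized reads in the controls against 251.2, 230.2 and 254.9 in the Wls fl/fl group, without overlap (log2 difference -0.44, limma adjusted p = 0.0831). The other pore gene, Kcnd3, was at 60.98, 154.1 and 144.8 against 99.84, 113.8 and 112.8, and the shallowest library, control replicate 1, was its lowest. Its log2 difference was -0.03 with all libraries (adjusted p = 0.968) and -0.46 without that library (adjusted p = 0.00845). Kcna4, which carries a slowly recovering transient current, differed by -0.62 with an SE of 0.36 (adjusted p = 0.399).

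Of the delayed rectifier genes, Kcnq1, the pore subunit of the slow current, differed by -0.39 (SE 0.13, limma adjusted p = 0.14) and its partner Kcne1 by -0.20 (adjusted p = 0.43). Kcna5, the pore of an ultrarapid current, had overlapping groups (-0.00, SE 0.14, adjusted p = 0.989). Kcnv2 (-0.68, SE 0.25, adjusted p = 0.183) and Kcng2 (-0.24, SE 0.10, adjusted p = 0.235) do not form channels by themselves but modify delayed rectifiers, and both had overlapping groups.

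The sodium channel genes differed in direction, and none passed limma's test (0 of 8 tested, beside 4.51% of all genes). Scn7a was at 864.8, 1127 and 980.6 normalized reads in the NonCM controls against 1206, 1226 and 1203 in the Wls fl/fl group, with every Wls fl/fl library above every control (log2 difference 0.30, SE 0.09, limma adjusted p = 0.0900). The skeletal muscle channel Scn4a (-0.49, adjusted p = 0.185) and Scn3a (-0.22, adjusted p = 0.365) had negative differences, without overlap of the groups.

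Higher values in NonCM Wls fl/fl libraries, besides Kcnn3 and Scn7a, were found for the beta subunit Kcnab2 (33.26, 51.1 and 47.8 against 69.31, 62.54 and 70.25 normalized reads, log2 difference 0.62, limma adjusted p = 0.102) and for the sodium-activated channel Kcnt2 (155.2, 146.4 and 152.1 against 181.9, 173.6 and 166.7, 0.20, adjusted p = 0.238). The groups of both did not overlap. Kcnab2 overlaps Nphp4 on the opposite strand. The stretch-gated leak channel Kcnk2 differed by 0.18 (adjusted p = 0.654), Kcnk6 by 0.20 (adjusted p = 0.502) and Kcnn1 by 0.65 with an SE of 0.42 (adjusted p = 0.44), all with overlapping groups. Kcnn1 was at 1.72 CPM in the shallowest library, control replicate 1, beside 5.24 and 5.61 CPM in control replicates 2 and 3. For Kcnn1 the authors' deposited table gives a log2 fold change of 0.29. Kcnn2, the third small-conductance gene, differed by -0.14 (adjusted p = 0.755).

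In the CM fraction 0 of the 39 tested members passed limma's test, beside 0.0921% of all 11944 genes tested. edgeR and DESeq2 on the recovered reads also called 0 members, beside 0.1% and 0.238% of all genes. The authors' deposited table, also from DESeq2 on these reads, gives 0 of the 31 members with an adjusted p. The members were spread evenly, 19 higher and 20 lower, with a median log2 difference of -0.01. At an unadjusted p under 0.05 stood 6 members (15.4%, beside 8.74% of all genes), namely Hcn2, Kcnn3 and Kcnk3 with positive and Kcna4, Kcnv2 and Kcnj3 with negative differences. The groups did not overlap in 5 members, all with Wls fl/fl higher (12.8%, beside 7.97% of all genes), and in 0 with Wls fl/fl lower (beside 7.05%). They were Hcn2, Kcnn3, Kcnk3, Kcnn2 and Kcnq1.

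Hcn2 (chr10:79716634-79736108, plus strand) was nearest to the threshold in CM. It stood at 381.1, 376.4 and 370.7 normalized reads in the CM controls against 482.8, 532.5 and 468.6 in the Wls fl/fl group. The lowest Wls fl/fl library was above the highest control by more than the whole range of either group, and the log2 difference was 0.39 (SE 0.07, 1.31-fold, limma adjusted p = 0.0638). The adjusted p was 0.0528 by edgeR and 0.0564 by DESeq2, and 0.00869 when limma ran with no filter on low values. Leaving out 1 library gave log2 differences of 0.34 to 0.43 and adjusted p of 0.0724 to 0.456, and leaving out replicate 3 of both genotypes gave an adjusted p of 0.98. In NonCM, Hcn2 stood at 221.7, 234.9 and 242.6 against 253.7, 264.8 and 255.6, also without overlap (0.15, SE 0.07, adjusted p = 0.319). The cardiomyocyte markers in CM had a median log2 difference of 0.04, with 0 of 14 called.

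Kcnn3, which was called in NonCM, was low in CM, at 18.4, 16 and 17.5 normalized reads in the controls against 30.5, 35.4 and 25.9 in the Wls fl/fl group. The groups did not overlap, and the log2 difference of 0.78 (SE 0.22) had an adjusted p of 0.399 by limma. The 10 fibroblast markers took 0.11% ± 0.00582 (SD, n = 3) of reads in the CM controls and 0.119% ± 0.0141 in Wls fl/fl CM libraries, with a median log2 difference of 0.05 and 0 called. Kcna4 (-0.62, adjusted p = 0.558), Kcnv2 (-0.43, adjusted p = 0.558) and Kcnj3 (-0.20, adjusted p = 0.565) were lower in CM, as in NonCM, with overlapping groups in CM. Of the genes with negative differences in NonCM, Kcnip2 (-0.01, SE 0.05), Kcnd2 (0.02, SE 0.08), Kcnh2 (-0.05, SE 0.08) and Kcnj12 (0.00, SE 0.10) lay within 1 SE of 0 in CM.

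**Figure D3:**
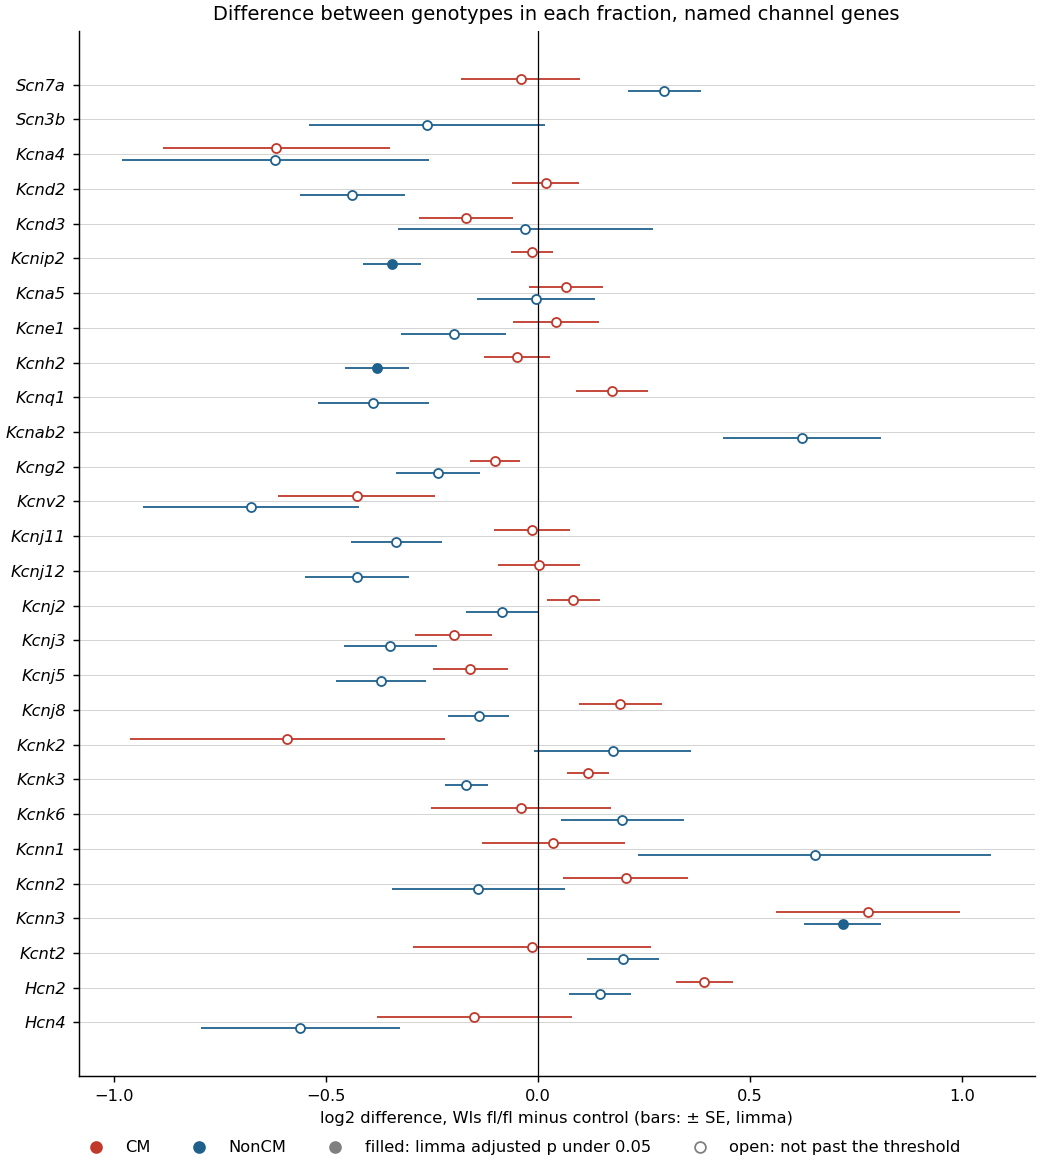
Log2 difference between Wls fl/fl and control libraries (bars ± SE from limma) of the named channel genes in CM and NonCM, filled where the adjusted p was under 0.05. The filled points are Kcnn3 (0.72), Kcnh2 (-0.38) and Kcnip2 (-0.34), all in NonCM.

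Whether the genotype difference itself differed between fractions was tested by the interaction in a joint limma fit of all 12 libraries on log2(CPM + 0.5). None of the 55 members in that fit passed (0, beside 0.239% of 13780 genes), with 12 at an unadjusted p under 0.05 (21.8%, beside 13.4% of all genes), 9 of which were lower in NonCM than in CM. The smallest p belonged to Kcnk3 (chr5:30588170-30625271), the leak channel with the highest level in both fractions. In CM, Kcnk3 stood at 1855, 1971 and 1968 normalized reads in the controls against 2009, 2166 and 2110 in the Wls fl/fl group, all higher. In NonCM it stood at 1203, 1272 and 1266 in the controls against 1131, 1070 and 1127 in the Wls fl/fl group, all lower. The interaction was -0.25 (SE 0.07, limma adjusted p = 0.13), and edgeR called it (-0.31, adjusted p = 0.0442) as its 1 member, beside 1.33% of all genes. Kcnk3 overlaps Gm9899 on the opposite strand.

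Kcnq1 followed with an interaction of -0.52 (SE 0.16, limma adjusted p = 0.166), from 196.2, 192.5 and 196.6 against 235, 200.1 and 227.8 normalized reads in CM and 177.4, 150.2 and 181.1 against 153.2, 115.1 and 121.1 in NonCM. Kcnq1 overlaps several transcripts, Kcnq1ot1 on the opposite strand among them. The interaction of Kcnip2 was -0.29 (SE 0.09, adjusted p = 0.173), and that of Kcnh2 -0.29 (SE 0.11, adjusted p = 0.275). For Kcnn3 it was 0.04 (adjusted p = 0.946). The median interaction over all genes was 0.05 on this scale and -0.0055 with TMM scaling. With TMM scaling limma gave -0.35 for Kcnip2 (adjusted p = 0.0576), -0.35 for Kcnh2 (0.184) and -0.31 for Kcnk3 (0.0601). edgeR's adjusted p was 0.0636 for Kcnip2 and 0.0786 for Kcnh2, so these too stayed above 0.05. The calls in NonCM are therefore not shown to be particular to that fraction.

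Between the fractions of control hearts, 40 of 55 members differed (72.7%, beside 54.7% of all genes), 21 higher and 19 lower in NonCM. All genes tested had a median log2 difference of 0.23 on this scale, with 40.8% called higher and 13.9% lower. With TMM scaling, which set the median of all genes at 5e-04, 27.3% of all genes were called higher and 25.5% lower, and 18 members were higher and 21 lower of 54. The control libraries of this comparison also served as the controls of both genotype comparisons, so the values are given side by side only.

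Kcnn3 had the largest log2(CPM + 0.5) difference between fractions, an order that depends on the pseudocount: as a ratio of mean CPM, Kcnab2 was 17.3-fold and Kcnn3 12.6-fold higher in NonCM. Kcnn3 was at 2.91, 2.51 and 2.76 CPM in CM control and 31.9, 34.6 and 36.9 CPM in NonCM control libraries (log2 difference 3.44, SE 0.13, limma adjusted p = 8.29e-13). Scn7a was at 18.2, 19.5 and 18.6 CPM in CM and 134, 165 and 146 CPM in NonCM (2.95, SE 0.11, adjusted p = 1.69e-12), and Kcnt2 at 1.94, 3.48 and 3.68 against 24.1, 21.4 and 22.7 CPM (2.76, SE 0.18, adjusted p = 1.59e-09). For these 3 genes no NonCM library came near a CM library.

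The leak channels, which pass a background potassium current, were divided. Kcnk2 was at a mean of 2.25 CPM in CM and 15.8 in NonCM (log2 difference 2.57), Kcnk6 at 5.45 and 21.2 (1.85) and Kcnk5 at 0.274 and 2.84 (2.11), and all 3 were higher in NonCM. Kcnk13 had no read in the 3 CM control libraries and stood at 2.59, 3.24 and 3.89 CPM in the NonCM controls, so its plotted difference depends on the pseudocount and is no fold. Kcnk3 went the other way, at 304 CPM in CM and 187 in NonCM (-0.70, SE 0.05, limma adjusted p = 3.37e-09). Also higher in NonCM were the beta subunit Kcnab2 (0.382 and 6.59 CPM, 3.02), Kcna2 (1.13 and 6.97 CPM, 2.17), the calcium-binding subunit Kcnip3 (1.17 and 6.78 CPM, 2.21) and Scn2a1 (0.352 and 3.85 CPM, 2.35). These 4 genes had few reads in CM and were also called with TMM scaling.

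Most of the genes lower in NonCM had high levels in CM. Hcn2 was at 60.2, 59 and 58.5 CPM in CM control and 34.5, 34.4 and 36.2 in NonCM control libraries (log2 difference -0.75, SE 0.07, limma adjusted p = 6.86e-08). Every CM library lay above every NonCM library. The log2 difference was -0.71 for Kcng2, -0.63 for Kcnip2, -0.61 for Kcnh2, -0.61 for Kcnd2, -0.58 for Kcnj11, -0.54 for Kcnj2 and -0.48 for Kcne1, all called. They stand beside a fall of the cardiomyocyte markers from 11.4% to 7.75% of reads in the same libraries. Of the 8 inward rectifiers, 6 were lower and 2 higher, the latter being Kcnj8 (0.41) and Kcnj15 (0.92), which lost their calls with TMM scaling (0.18 and 0.72, adjusted p of 0.0931 and 0.0624), as did the accessory subunit Kcne4 (0.72 by CPM, 0.51 by TMM, adjusted p = 0.101). Kcna5 (-0.03, adjusted p = 0.863) and Hcn4 (-0.14, adjusted p = 0.642) were not called in either scaling. Kcnq1 and Kcna4 were called lower only with TMM scaling (-0.51 and -0.79, adjusted p of 0.00114 and 0.0325).

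**Figure D4:**
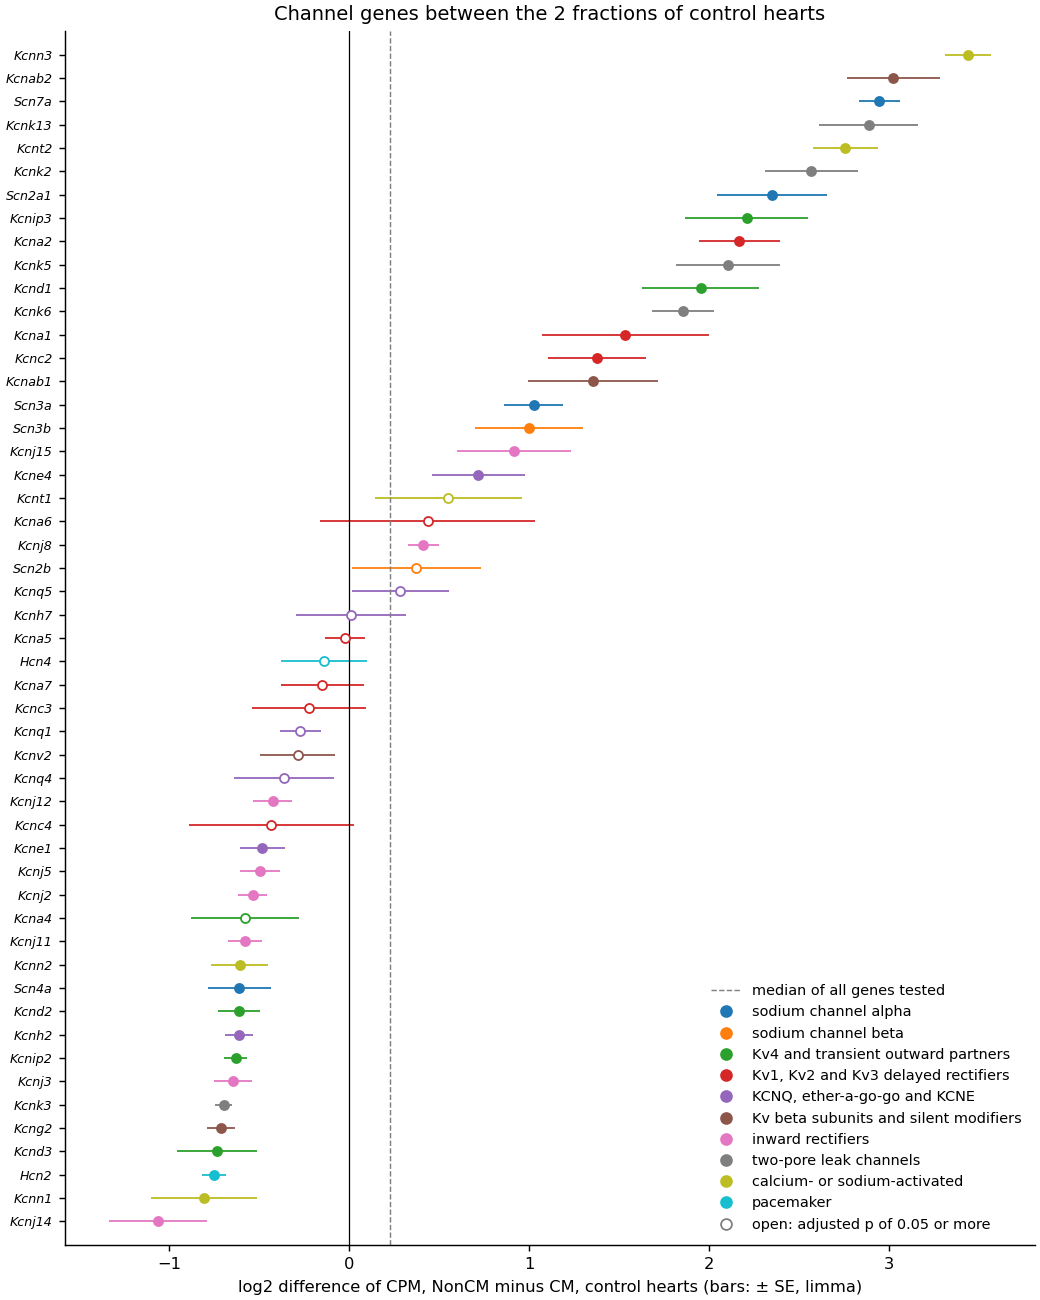
Difference of log2(CPM + 0.5) between NonCM and CM control libraries (bars ± SE from limma) of the channel genes reported from the joint fit, coloured by role and open where the adjusted p was 0.05 or more, with the median of all genes as a dashed line. Kcnn3 (3.44), Kcnab2 (3.02) and Scn7a (2.95) were highest on this scale, whose pseudocount of 0.5 sets the order of genes with few CM reads, and Kcnk3 (-0.70) and Hcn2 (-0.75) were among the lower ones.

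A list of 42 other genes of cardiac excitability was measured beside the members, holding calcium channel, exchanger, pump, gap junction and channel-associated genes and transcription factors of the conduction system. In CM, 36 were tested and 0 were called by limma (beside 0.0921% of all genes, with 5 at an unadjusted p under 0.05, median -0.00). In NonCM, 37 were tested, 31 were lower and 6 higher (median -0.17), and 5 fell while 0 rose, beside 46.8% of all genes lower, 2.03% called lower and 2.47% called higher. Without replicate 3 of both genotypes 31 were again lower, with a median of -0.17 and 0 calls. The 5 that fell were Lrrc10, a cardiomyocyte protein of the cytoskeleton (log2 difference -0.55, limma adjusted p = 0.00216), the sodium-calcium exchanger Slc8a1 (-0.28, adjusted p = 0.0101), Abcc9, the regulatory partner of ATP-sensitive channels (-0.22, adjusted p = 0.0374), the L-type calcium channel Cacna1c (-0.26, adjusted p = 0.0469) and Fgf13, a modulator of sodium channels (-0.31, adjusted p = 0.0484). Lrrc10 was at 909.1, 949.5 and 896.6 normalized reads in the NonCM controls against 655, 589.5 and 632.3 in the Wls fl/fl group, without overlap. The 14 cardiomyocyte markers lay between -0.40 and -0.08 in the same libraries, and the part of cell composition in the partner genes was not tested.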

How the data were processed

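The submitters' processing notes name STAR, DESeq2 and the mouse build mm10 (GRCm38). The sources used here do not give the counting tool, annotation, strand use or versions. Each fraction has 1 deposited table with a signal for every gene and library: a normalized read count, that is, counts over a size factor per library, as the values themselves show. All values (100%) were whole multiples of a step within 0.01 reads, so reads were recovered from them. Per the file headers, the authors' log2 fold changes, DESeq2 test score and p-values stand beside them. The members and lists were chosen with earlier results of these data known.

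Genotypes were compared within each fraction without covariates, in R 4.3.3 with the package limma 3.58.1 and its trended empirical Bayes step, on log2(value + 1), for genes whose mean was at least 10. Fractions and the interaction were tested in 1 fit of 12 libraries on log2(CPM + 0.5), for genes with a mean CPM of 1 or more, because the tables were scaled apart. Adjustment was Benjamini-Hochberg over all genes tested. Positions and exon lengths came from GENCODE M21 (113 of 114 members, all but Scn2a1), and upstream stretches from RefSeq (81 of 114 members). Replicate numbers were given in accession order within a group. No label says that libraries of a group are separate cultures or animals beyond 3 hearts per condition, so the p-values rest on library-to-library spread that may in part be technical. Exact tests of 3 against 3 libraries cannot go below p = 0.1, so none are given for single genes. A gene was named when it was called by limma, was among the 4 smallest p of a fraction, was in the list of 25 cardiac channel genes, or had 1 of the 2 highest levels per length among the tested members of its role group in either fraction, which gave 34 genes. Some of these are not reported here, though counts over the members include them. Members outside this rule that the text names were chosen after their values were seen.

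Alternatives were TMM scaling, other filters and pseudocounts, count tests of the recovered reads (edgeR 4.0.16, DESeq2 1.42.0, limma-voom), leaving out each library or replicate 3, and another gene length. The code was tested on simulated data, drawn with independent libraries and the same dispersion for every gene. The numbers below therefore check the code and give no error rate for the calls in the real libraries. In NonCM (13728 genes), the calls recovered 17 of 100 genes with a log2 change of 0.5 and 71 of 98 with one of 1, with 1 false call among 89. In CM (11958 genes) these were 42 of 98 and 83 of 95, with 4 false among 129. For the interaction (13780 genes) they were 1 of 97 and 40 of 100, with 0 false among 41.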

Additional observations from a re-analysis of the deposited data

How the results depend on the processing

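No paired analysis was possible because the labels do not tie CM and NonCM libraries to hearts, the genotypes are different mice, and replicate numbers only name libraries. The NonCM count of 3 called members became 7 at an adjusted p of 0.1, 12 with edgeR, 11 with limma-voom and 1 to 12 with 1 library left out (12 when control replicate 1 was left out, 7 for control replicate 2, 2 for Wls fl/fl replicate 1, 1 for each of the others). Calls over all genes moved too, from 598 of 13271 to 1120 at an adjusted p of 0.1, 1446 with edgeR and 1477 with limma-voom. With 1 library left out they ran from 77 of 13269 (without Wls fl/fl replicate 3) to 1634 of 13280 (without control replicate 1). Leaving out replicate 3 of both genotypes gave 0 with limma (0 of all 13278 genes) and 1 (Kcnn3) with edgeR (33 of all 13278 genes). The latter was an alternative added after seeing the data. The CM count of 0 became 1 (Hcn2) at an adjusted p of 0.1 (21 of all 11944 genes) and with no filter (41 of 26529). The interaction count of 0 became 1 with edgeR (Kcnk3, beside 183 of all 13780 genes). It was 0 to 1 with 1 library left out (Kcnip2 without NonCM control replicate 2, beside 117 of 13742 genes). The counts of the gene lists without replicate 3 were also added after seeing the data. The causes were not tested. The count of 40 between fractions was 35 to 40 under all alternatives except a mean CPM of 5 or more. There fewer members were tested and 27 of 30 were called, beside 6290 of all 10375 genes. The median level per length of the named genes in CM control moved from 4.59 to 5.17 CPM per kilobase with the longest transcript as length.

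Among the genes reported, directions turned only in members that limma did not call in that fraction. With 1 library left out, log2 differences in CM ran from -0.39 to 0.016 (Hcn4), -0.067 to 0.10 (Kcnd2), -0.091 to 0.11 (Kcne1), -0.11 to 0.017 (Kcnh2), -0.046 to 0.0037 (Kcnip2), -0.091 to 0.094 (Kcnj11), -0.095 to 0.096 (Kcnj12), -0.26 to 0.11 (Kcnk6), -0.055 to 0.13 (Kcnn1), -0.29 to 0.14 (Kcnt2) and -0.14 to 0.14 (Scn7a), and in NonCM from -0.18 to 0.11 (Kcna5) and -0.46 to 0.21 (Kcnd3). Without replicate 3 of both genotypes, limma gave, in CM, 0.0018 (Kcnip2), -0.0093 (Kcnj12), 0.019 (Kcnk6) and 0.15 (Kcnt2), and in NonCM 0.059 (Kcna5), 0.13 (Kcnd3) and 0.039 (Scn3b). edgeR without it gave, in CM, -0.0049 (Kcnd2), -0.018 (Kcnj12), 0.049 (Kcnk6) and 0.14 (Kcnt2), and in NonCM 0.076 (Kcna4) and 0.13 (Scn3b). edgeR with all libraries gave 0.0028 for Scn7a in CM. Depth limits NonCM control replicate 1, which holds 1160146 reads, and members near the limit of 10 there rest on 0 to 3 of its reads.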
